A study of Homo sapiens with 12 samples.

Results

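The Kruppel-like factor (KLF) family was examined through 10 of its genes, to ask whether the low level of KLF4 in cells without STING was shared by its relatives. KLF2, KLF3, KLF4, KLF5, KLF6, KLF7, KLF9, KLF10, KLF11 and KLF13 were taken by gene symbol from the 58288 gene rows of the deposited table. These 10 genes were chosen because of the known fall of KLF4, so that fall is given as a description and is not counted as evidence. Of the 10 genes, 8 reached 1 TPM (transcripts per 1000000) in no fewer than 3 libraries and entered the tests, which covered 15973 genes in all. KLF2 and KLF9 did not reach it in any library.

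FaDu is an established human head and neck squamous cell carcinoma (HNSCC) line. STING, encoded by the gene listed as TMEM173, is an adaptor that signals the presence of DNA in the cytosol. All cells had received Cas9 and a guide RNA by lentivirus with drug selection, and STING WT cells carried a non-targeting guide whereas STING KO cells carried a guide against STING, so each genotype is 1 guide in 1 line. Polyadenylated RNA was sequenced from WT and KO cells, either unirradiated (0 Gy) or after 4 daily fractions of 2 Gy (RT), with 3 libraries in each of the 4 groups. TMEM173 lay between 21.1 and 26.1 TPM in the 6 WT libraries and between 5.18 and 7.41 TPM in the 6 KO libraries, and a transcript level is no measure of the protein left.

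KLF proteins bind GC-rich and CACC-rich DNA through zinc fingers at the carboxyl end, and members with different amino ends act as activators or as repressors. In stratified epithelium KLF5 is known as a factor of the dividing basal layer and KLF4 as a factor of the differentiating layers above it. KLF2, KLF4, KLF6 and KLF10 are also known as early response genes, whose transcripts rise and decay quickly after growth factors, shear, or stress.

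The upstream sequences of KLF4 and KLF6 are shown because these were the members whose KO libraries were called lower in a comparison. Both are from RefSeq on GRCh38.p14, written 5′ to 3′ along the minus strand on which both genes lie. The KLF4 sequence is the 250 bases before its RefSeq start site, chr9:107489770-107490019. On GENCODE this stretch is upstream of 5 of the 6 KLF4 transcripts and overlaps no exon, but it lies inside the annotated gene, in an intron of the remaining transcript, whose first exon is at 107490119 to 107490482. The KLF6 sequence is the 178 bases at chr10:3785282-3785459, upstream of every annotated exon. Capitals mark the GC box GGGCGG and TGACG, the core of the cAMP response element (CRE), on either strand.
KLF4: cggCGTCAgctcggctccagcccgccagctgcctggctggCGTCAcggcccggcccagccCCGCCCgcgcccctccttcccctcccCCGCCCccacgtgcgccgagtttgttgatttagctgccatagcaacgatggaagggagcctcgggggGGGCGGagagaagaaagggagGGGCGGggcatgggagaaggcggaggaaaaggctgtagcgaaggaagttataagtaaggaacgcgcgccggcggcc
KLF6: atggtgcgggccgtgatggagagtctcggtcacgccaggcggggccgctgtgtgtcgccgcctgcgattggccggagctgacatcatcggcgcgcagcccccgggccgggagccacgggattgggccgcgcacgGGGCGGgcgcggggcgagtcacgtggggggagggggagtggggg

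The KLF4 stretch held 4 GC boxes and 2 TGACG cores with a GC content of 69.2%, and the KLF6 stretch held 1 GC box with a GC content of 76.4%. The promoter table held 13 start sites of 8 of the 10 genes, all except KLF3 and KLF10. In windows of 250 bases before the start site, GGGCGG was found on either strand at 8 of the 13 start sites, which belong to 7 genes, compared with 42.6% of the 35116 promoters in the table. The median GC content was 70.8% in the 13 windows and 58% over all promoters, so these shares do not compare windows of like GC content. TGACG, which is contained in the full CRE TGACGTCA, was found at 4 of the 13, which belong to KLF4, KLF5, KLF11 and KLF13, compared with 21.2% of all promoters. The letters of the interferon-stimulated response element, found in 3.02% of all promoters, and of the NF-kB element, found in 1.73%, were found at 0 of the 13 start sites. The GAS letters TTCNNNGAA, found in 6.57% of all promoters, matched at 1 start site, which belongs to KLF7. Matches to so few letters describe these windows only and say nothing of binding.

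The members differed in level by more than 2 orders of magnitude. KLF5 and KLF10 were the most abundant, and KLF2 and KLF9 were listed below 1 TPM in every library. TPM is scaled per transcript length, so the levels of different genes can be set side by side. In unirradiated WT cells the order of mean TPM was KLF5 at 176.9 ± 11.7 (SD, n = 3), KLF10 at 155.9 ± 1.54, KLF3 at 61.6 ± 2.51, KLF13 at 31.7 ± 7.38, KLF4 at 23.7 ± 5.29, KLF7 at 23.4 ± 0.977, KLF6 at 12.6 ± 0.689, KLF11 at 3.12 ± 0.490, KLF2 at 0.359 ± 0.0970 and KLF9 at 0.321 ± 0.147. In that order the libraries of KLF13 and KLF4, of KLF4 and KLF7 and of KLF2 and KLF9 overlapped, and the other neighbours did not. KLF4 was the fifth member by mean level in WT cells in both arms and the seventh in KO cells in both arms, where it lay below KLF6 and above KLF11 without overlap. At 0 Gy KLF4 made up 4.83% of the summed TPM of the 10 genes in WT and 1.24% in KO. After RT the shares were 6.93% in WT and 1.98% in KO cells. These shares also move with the other members. Mean KLF5 in irradiated WT cells was 103.7 TPM, with 1 library at 58.0 TPM.

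**Figure D1:**
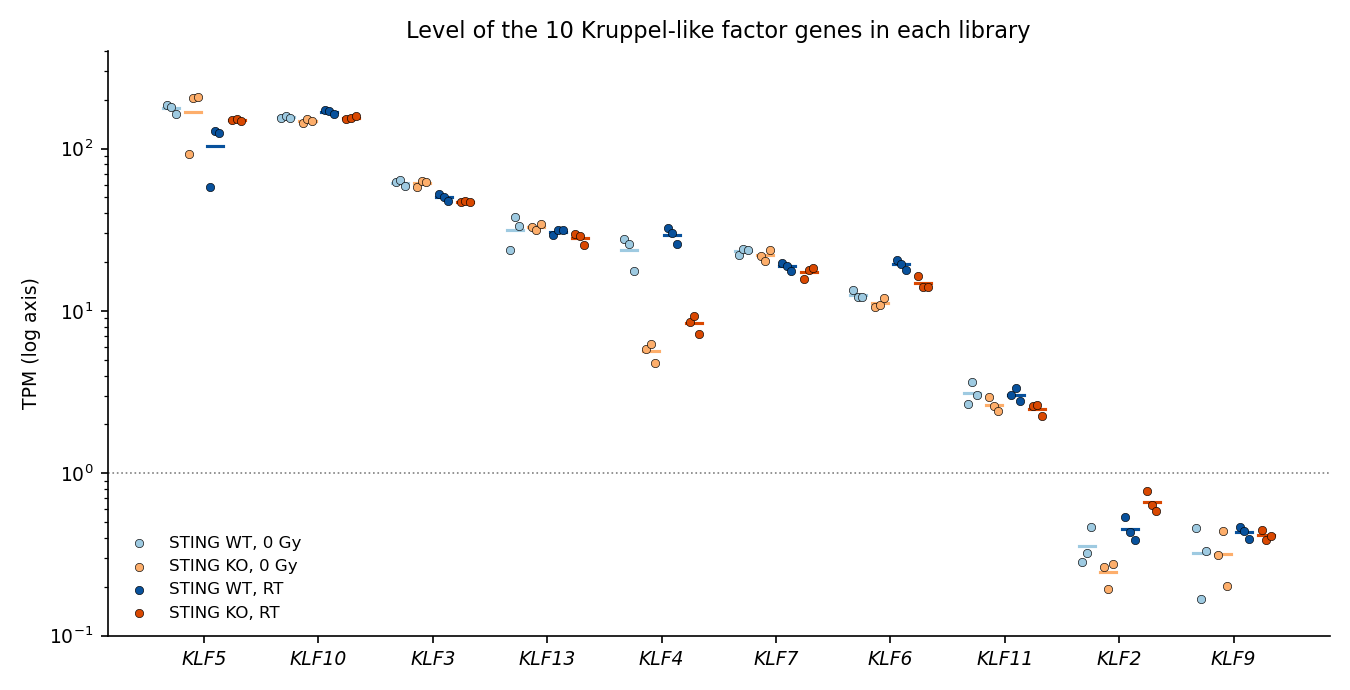
TPM of the 10 Kruppel-like factor genes (log axis) in each of the 12 libraries, by gene and group. Points are single libraries, short lines are means of 3 libraries, and the dotted line marks 1 TPM. KLF4 shows a gap between WT and KO libraries in both arms, from 17.6 to 32.4 TPM in WT and from 4.78 to 9.27 TPM in KO, while the libraries of most other members lie close together.

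KLF4 (ENSG00000136826.14) is placed at 107484852 to 107490482 on chromosome 9 of GRCh38, minus strand. It is a zinc-finger factor of epithelial differentiation and one of the reprogramming factors. In unirradiated cells its TPM was 27.5, 25.8 and 17.6 in the WT libraries and 5.80, 6.29 and 4.78 in the KO libraries. The irradiated WT libraries had 32.4, 30.0 and 25.9 TPM and the irradiated KO libraries 8.60, 9.27 and 7.24 TPM. WT and KO libraries of KLF4 did not overlap in either arm, and mean TPM in KO was 0.238 of that in WT at 0 Gy and 0.284 of it after RT. On the log2(TPM + 1) scale, on which every fitted difference below is given and which understates the change of low genes, the difference was -1.88 (SE 0.16) at 0 Gy and -1.70 (SE 0.16) after RT. Fewer transcripts per cell and fewer cells with the transcript cannot be told apart in bulk RNA.

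The fall of KLF4 was not matched in size by any other member. Of the 7 other members tested, 0 were past an adjusted p of 0.05 in unirradiated cells (limma), and 0 had an unadjusted p under 0.05, while 1.73% of all genes tested were past the adjusted threshold. The share of all genes with an unadjusted p under 0.05 is not given for the comparisons between groups. Unadjusted counts for them, here and below, are therefore not read as many or few. Among these 7 the KO minus WT difference lay between -0.17 (KLF11) and 0.08 (KLF13). In irradiated cells 1 of the 7, KLF6, was past the threshold, compared with 3.59% of all genes. That difference then lay between -0.37 (KLF6) and 0.62 (KLF5). The median over the 7 members without KLF4 was -0.08 at 0 Gy and -0.13 after RT, beside -0.02 over all genes tested in each arm. The comparisons at 0 Gy and after RT use separate libraries but share 1 estimate of the spread.

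**Figure D2:**
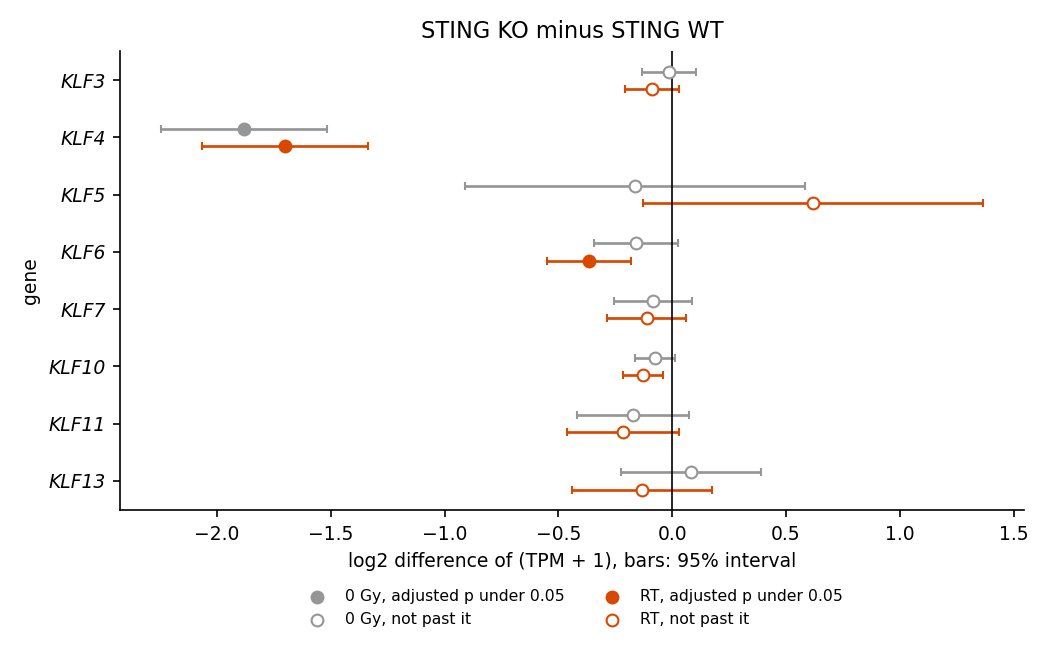
Difference between STING KO and STING WT in log2(TPM + 1) for the 8 members tested, with 95% intervals from limma, at 0 Gy (grey) and after RT (orange), with filled points past an adjusted p of 0.05. KLF4 lies near -1.88 and -1.70, KLF6 is the only other filled point, at -0.37 after RT, and KLF5 has the widest intervals.

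KLF6 (ENSG00000067082.14; chromosome 10, 3775996 to 3785281, minus strand) is an early response factor known as a growth suppressor. In unirradiated cells its TPM was 13.4, 12.2 and 12.2 in WT libraries and 10.6, 10.8 and 12.1 in KO libraries. The irradiated WT libraries had 20.7, 19.4 and 17.9 TPM and the irradiated KO libraries 16.3, 13.9 and 14.1 TPM. The KO libraries were below the WT libraries without overlap in both arms, and the irradiated libraries were above the unirradiated ones without overlap in both genotypes. The KO difference was -0.16 (95% interval -0.34 to 0.03, limma adjusted p = 0.434) at 0 Gy and -0.37 (-0.55 to -0.18, adjusted p = 0.039) after RT. The call after RT held in 6 of 20 alternative settings, and among single libraries left out it held only without unirradiated WT library 1, unirradiated KO library 3 or irradiated KO library 1. Without any 1 of the other 9 libraries the adjusted p lay between 0.051 and 0.139. Averaged over both arms the difference was -0.26 (SE 0.06, adjusted p = 0.025), a comparison in which KLF6 was the 1 of the 7 members besides KLF4 that passed, beside 7.43% of all genes. That call was lost, at an adjusted p of at most 0.061, when library 1 or 2 of unirradiated KO, library 1 of unirradiated WT, library 1 or 2 of irradiated WT or library 2 or 3 of irradiated KO was left out.

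RT raised KLF6 in WT cells by 0.58 (95% interval 0.40 to 0.77, limma adjusted p = 0.0046), a call kept in all 20 alternative settings. In KO cells the rise was 0.37 (0.19 to 0.56, adjusted p = 0.037), kept in 8 of 20 settings. When single libraries were left out it was kept only without unirradiated WT library 1 or irradiated WT library 1 or 3, and the highest adjusted p was 0.112. The rise in KO minus the rise in WT was -0.21 (95% interval -0.47 to 0.05, adjusted p = 0.826), so the 2 rises were not shown to differ.

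KLF10 (ENSG00000155090.14; chromosome 8, 102648779 to 102655902, minus strand), an early gene of TGF-beta signalling, was among the steadiest members. Its TPM was 155.1, 157.7 and 154.9 in unirradiated WT libraries and 143.2, 152.4 and 147.8 in unirradiated KO libraries. With RT the WT libraries had 171.5, 171.1 and 164.2 TPM and the KO libraries 150.9, 153.6 and 159.3 TPM. The KO libraries lay below the WT libraries in both arms without overlap, by means of 147.8 against 155.9 TPM and 154.6 against 168.9 TPM. The differences of -0.08 (95% interval -0.16 to 0.01, limma adjusted p = 0.422) and -0.13 (-0.22 to -0.04, adjusted p = 0.118) did not pass. Leaving KLF4 aside, KLF6 and KLF10 were the 2 of 7 members with KO libraries below WT libraries in both arms, an ordering seen in 5.23% of all genes tested. Counted by arm over the same 7, the libraries of 2 members did not overlap at 0 Gy, beside 20.6% of all genes, and those of 4 did not overlap after RT, beside 24.1%.

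KLF11 (ENSG00000172059.10; chromosome 2, 10042849 to 10054836, plus strand), the close relative of KLF10, was low. Its TPM was 2.69, 3.65 and 3.03 in unirradiated WT and 2.94, 2.58 and 2.42 in unirradiated KO libraries. With RT the WT libraries had 3.02, 3.34 and 2.79 TPM and the KO libraries 2.59, 2.64 and 2.24 TPM. The KO and WT libraries overlapped at 0 Gy and did not overlap after RT. Neither the difference of -0.17 (limma adjusted p = 0.541) nor that of -0.22 (adjusted p = 0.353) passed.

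KLF5 (ENSG00000102554.13; chromosome 13, 73054976 to 73077542, plus strand), the basal-layer factor, varied most between libraries of 1 group among the 8 members tested. Its TPM was 185.7, 181.4 and 163.6 in unirradiated WT and 91.9, 204.8 and 207.3 in unirradiated KO libraries. The irradiated WT libraries had 58.0, 128.1 and 125.1 TPM and the irradiated KO libraries 150.3, 152.4 and 148.4 TPM. Library 1 of unirradiated KO was at 0.446 of the mean of the other 2 libraries of its group, and library 1 of irradiated WT was at 0.458 of it. Those libraries did not stand apart in general, since 33 and 41 of 7110 well-expressed genes were below 50% of the other 2 libraries there, within the range of 32 to 50 over the 12 libraries. None of the KLF5 differences passed, with -0.16 (95% interval -0.91 to 0.58) for KO at 0 Gy, 0.62 (-0.13 to 1.37) for KO after RT, -0.85 (-1.60 to -0.10, limma adjusted p = 0.216) for RT in WT and -0.07 (-0.81 to 0.68) for RT in KO. Without library 1 of unirradiated KO the KO difference at 0 Gy changed sign to 0.22 and that for RT in KO moved to -0.45. Without library 1 of irradiated WT the RT difference in WT moved to -0.48 and the KO difference after RT to 0.25, and none of these 4 passed. Intervals this wide do not show that KLF5 was the same in the groups.

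**Figure D3:**
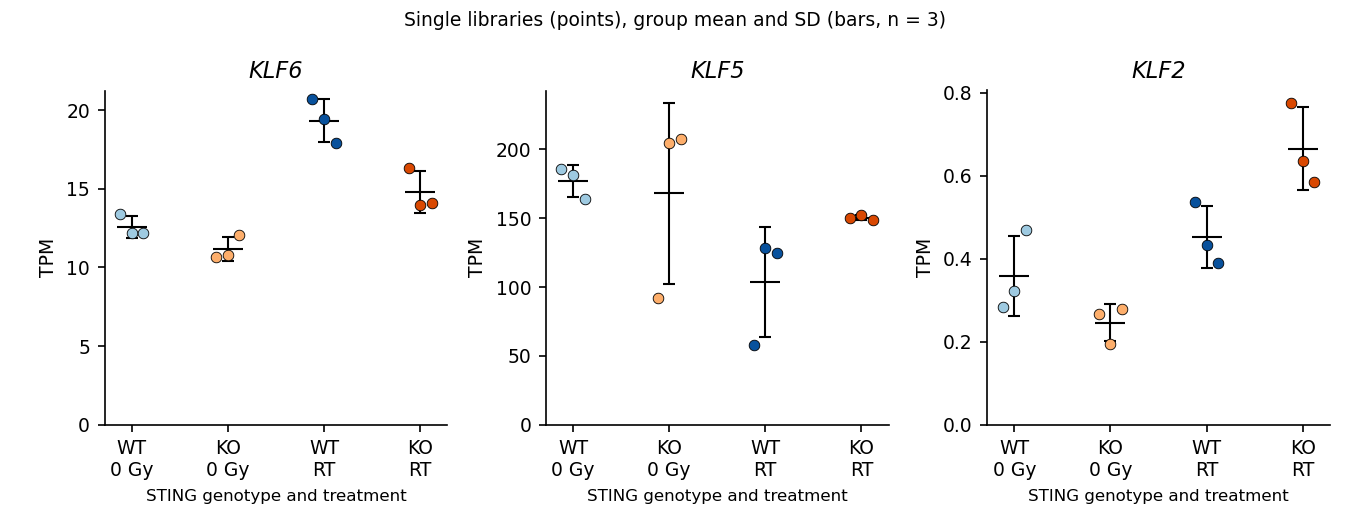
TPM of KLF6, KLF5 and KLF2 in each library (points) with the mean and SD of 3 libraries (bars) for the 4 groups, each panel on its own linear axis from 0. KLF6 is lower in KO and higher after RT, KLF5 has 1 low library at 91.9 TPM in unirradiated KO and 1 at 58.0 TPM in irradiated WT, and KLF2 stays at or below 0.776 TPM.

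KLF3, KLF7 and KLF13 were not past the threshold for genotype in either arm. KLF3 (ENSG00000109787.12; chromosome 4, 38664196 to 38701042, plus strand) is a repressor that recruits CtBP. Its TPM was 62.4, 63.5 and 58.8 in unirradiated WT and 57.8, 62.8 and 62.3 in unirradiated KO libraries. After RT the WT libraries had 52.3, 50.4 and 47.7 TPM and the KO libraries 46.8, 47.8 and 46.5 TPM, with overlap of the genotypes in both arms. The KO difference was -0.01 (95% interval -0.13 to 0.10) at 0 Gy, the lower bound nearest to 0 among the 8 members, and -0.09 (-0.21 to 0.03) after RT. KLF7 (ENSG00000118263.14; chromosome 2, 207074137 to 207167267, minus strand), known for its role in neurons, gave KO differences of -0.08 (-0.26 to 0.09) and -0.11 (-0.28 to 0.06). KLF13 (ENSG00000169926.10; chromosome 15, 31326855 to 31435665, plus strand), a GC-box repressor, had 23.6, 38.1 and 33.5 TPM in unirradiated WT libraries, which overlapped all other groups. It had 31.6 to 34.4 TPM in unirradiated KO, 29.2 to 31.5 TPM in irradiated WT and 25.6 to 29.6 TPM in irradiated KO libraries, and its KO differences were 0.08 (-0.23 to 0.39) and -0.13 (-0.44 to 0.18).

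RT moved KLF3 and KLF7 down and KLF6 up. Of the 8 members, 2 were past the threshold for RT in WT cells, KLF3 and KLF6, compared with 3.74% of all genes, and 3 in KO cells, KLF3, KLF6 and KLF7, compared with 3.69%. KLF3 fell by 0.29 (SE 0.05, limma adjusted p = 0.016) in WT and by 0.37 (SE 0.05, adjusted p = 0.0051) in KO cells, and in both genotypes all irradiated libraries were below all unirradiated ones. The call in KO cells was kept in all 20 settings and that in WT cells in 15. The call in WT cells was lost, at an adjusted p of at most 0.060, without unirradiated WT library 1 or 2 or irradiated WT library 2 or 3. It was also lost with only the 6 libraries compared, at an adjusted p of 0.094. KLF7 had 22.2, 24.0 and 23.9 TPM in unirradiated WT and 19.7, 19.0 and 17.6 TPM in irradiated WT libraries. In KO cells it had 21.9, 20.4 and 23.8 TPM before and 15.8, 17.8 and 18.4 TPM after RT, again without overlap. The KLF7 difference was -0.30 (adjusted p = 0.063) in WT and -0.33 (adjusted p = 0.047) in KO cells, where the call was lost whichever 1 of the 12 libraries was left out (adjusted p up to 0.147). Both KLF3 and KLF7 had irradiated libraries below unirradiated ones in both genotypes, as did 3.86% of all genes tested, and KLF6 had them above in both, as did 5.63%.

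Averaged over WT and KO cells, RT changed 4 of the 8 members, beside 10.2% of all genes. KLF3 fell by 0.33 (SE 0.04, limma adjusted p = 4.8e-04), KLF7 fell by 0.32 (SE 0.06, adjusted p = 0.0056) and KLF6 rose by 0.48 (SE 0.06, adjusted p = 7.5e-04), and these 3 calls were kept in all 19 alternative settings. KLF4 rose by 0.41 (SE 0.12, adjusted p = 0.0495), a call kept in 4 of 19. Of the 12 libraries, the call on KLF4 survived leaving out only unirradiated WT library 1, with an adjusted p of up to 0.109 otherwise. Within genotypes the KLF4 difference was 0.32 (95% interval -0.04 to 0.69, adjusted p = 0.338) in WT, where the libraries overlapped and the value was 0.13 without unirradiated WT library 3, and 0.50 (0.14 to 0.87, adjusted p = 0.132) in KO cells, where they did not. RT in KO cells left KLF4 at 8.37 ± 1.04 TPM, below the 23.7 ± 5.29 TPM of unirradiated WT cells (SD, n = 3 each). The difference between the 2 RT responses of KLF4 was 0.18 (95% interval -0.34 to 0.69, adjusted p = 0.931), and it ranged from 0.06 without unirradiated WT library 1 to 0.37 without unirradiated WT library 3.

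**Figure D4:**
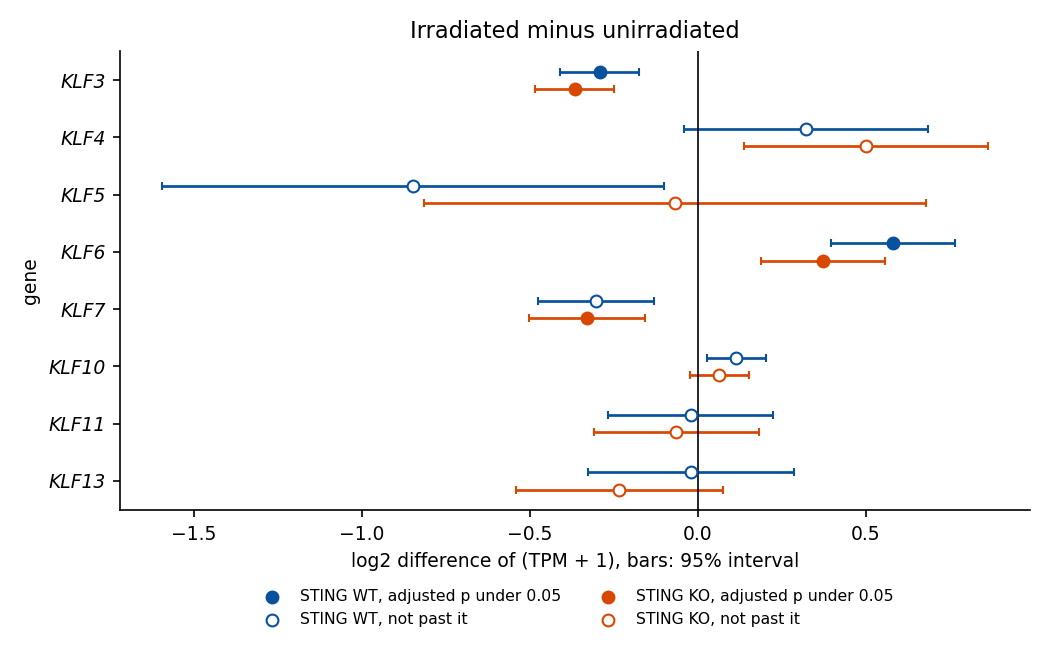
Difference between irradiated and unirradiated libraries in log2(TPM + 1) for the 8 members tested, with 95% intervals from limma, in STING WT (blue) and STING KO cells (orange), with filled points past an adjusted p of 0.05. KLF6 lies above 0 (0.58 and 0.37), KLF3 (-0.29 and -0.37) and KLF7 (-0.30 and -0.33) lie below, and KLF5 has the widest intervals.

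No member was past the threshold for an RT response that differed between genotypes. For that difference 0 of the 8 passed (limma), and 0 also had an unadjusted p under 0.05, beside 0.0188% and 6.61% of all genes. KLF5, KLF10, KLF11 and KLF13 were not past the threshold for RT in either genotype. The median RT difference of the 8 members was -0.02 in WT and -0.07 in KO cells, beside 0.02 over all genes tested in each. Libraries of irradiated and unirradiated cells did not overlap for 5 members in WT, beside 24.8% of all genes, and for 5 members in KO cells, beside 24.3%.

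The 2 members below 1 TPM are given by library. KLF2 (ENSG00000127528.5; chromosome 19, 16324817 to 16327874, plus strand), a factor of endothelium and resting lymphocytes, had 0.285, 0.323 and 0.469 TPM in unirradiated WT and 0.266, 0.194 and 0.278 TPM in unirradiated KO libraries. After RT it had 0.536, 0.432 and 0.390 TPM in WT and 0.776, 0.635 and 0.585 TPM in KO libraries. All KO libraries were below the WT libraries at 0 Gy and above them after RT (two-sided exact permutation test, p = 0.1 for each, the smallest that 3 libraries against 3 allow). The KO libraries also rose with RT without overlap, with a ratio of means of 2.70 (exact p = 0.1). The summed TPM of the 3 endothelial markers PECAM1, VWF and CDH5 moved with RT as well, from 11.5 to 13.9 in unirradiated WT and 13.0 to 15.9 in unirradiated KO libraries to 18.3 to 18.6 and 19.9 to 23.9 in irradiated ones, with PECAM1 at or below 0.0989 TPM throughout. Its part in the KLF2 values was not tested. KLF9 (ENSG00000119138.4; chromosome 9, 70384597 to 70414624, minus strand), a glucocorticoid-responsive repressor, lay between 0.168 and 0.468 TPM with overlap in every comparison. TPM keeps no read number, so the counting error of values this low is unknown.

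Other genes of the family and of its sister branch, the SP factors, were read from lists, which did not hold all 18 KLF genes with a row. Of 7 further KLF genes listed, 2 were tested, KLF12 and KLF16. Neither was past the threshold in any of the 4 comparisons between groups (limma), and KLF16 had an unadjusted p under 0.05 for KO after RT and for RT in KO cells. KLF16 had 22.2, 21.6 and 26.1 TPM in irradiated WT libraries and 8.76, 18.9 and 18.7 TPM in irradiated KO libraries, 1 of which lay apart from the other 2. Of 9 SP genes, 8 reached the level needed for testing, and SP8, a developmental factor of limb and brain, did so only through the WT libraries, so its values are a description with no test. SP8 had 2.78, 2.48 and 2.68 TPM in WT and 0.762, 0.587 and 0.866 TPM in KO libraries at 0 Gy, and 3.27, 3.23 and 2.90 TPM in WT and 0.654, 0.858 and 0.551 TPM in KO libraries after RT. No KO library of SP8 overlapped a WT library, and the differences were -1.07 (SE 0.11) and -1.30 (SE 0.11). Of the 7 other SP genes, 0 were past the threshold for the KO effect in either arm (limma), with 1 at an unadjusted p under 0.05 at 0 Gy and 0 after RT, and their median KO difference was -0.02 at 0 Gy and -0.11 after RT.

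The genes whose group pattern lay nearest to that of KLF4 came from outside the family. Likeness was the distance between the 4 group means of log2(TPM + 1), each gene centred on its own mean, over 15972 other genes, and is a description only. The centred means were not scaled, and those of KLF4 mainly hold its KO fall, for which the members were chosen. A gene with a small KO difference therefore lies far from KLF4 by construction, so the ranks of the other members restate their small KO differences. The nearest was IFI6 at a distance of 0.178, followed by HLA-B at 0.220, HERC6 at 0.265, TMEM173 itself at 0.290 and PMAIP1 at 0.379. IFI6, HLA-B and HERC6 are known interferon-stimulated genes, and PMAIP1 encodes the BH3 protein NOXA. SP8 ranked 30. The nearest KLF member was KLF6 at rank 947 with a distance of 1.54, then KLF11 at rank 2408 and KLF10 at rank 3874. KLF7 ranked 8753, KLF13 9281, KLF3 10776 and KLF5 15533.

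**Figure D5:**
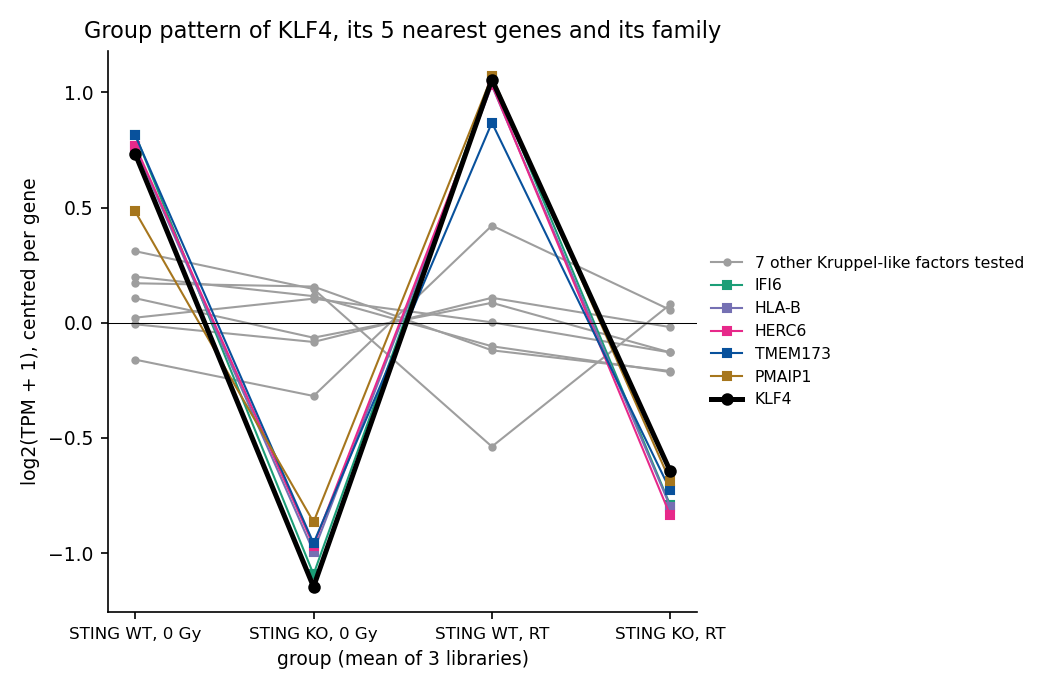
Group means of log2(TPM + 1), each gene centred on its own mean, for KLF4 (black), its 5 nearest genes (colours) and the 7 other members tested (grey), over the 4 groups of 3 libraries. KLF4 runs from 0.73 and 1.06 in the WT groups to -1.15 and -0.64 in the KO groups with IFI6, HLA-B, HERC6, TMEM173 and PMAIP1 beside it, and the grey lines stay between -0.54 and 0.42.

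Few genes known to act with or on KLF proteins were past the threshold. Of 12 co-repressors and co-activators that KLF proteins recruit, 0 were past the threshold in any of the 4 comparisons between groups (limma). At an unadjusted p under 0.05, with no share of all genes to set beside it, there were 0 for KO at 0 Gy, 2 for KO after RT, 3 for RT in WT and 4 for RT in KO cells. Of 11 genes of the ERK5 and MEF2 route that acts upstream of KLF2 and KLF4, 0 were past it, with 0, 2, 2 and 0 at an unadjusted p under 0.05 in the same order. The medians of these lists lay between -0.0030 and 0.06 and between -0.03 and 0.05 over the 4 comparisons. Of 12 ubiquitin ligase genes and relatives that act on KLF proteins, 1 was past it in any of these 4 comparisons, and the list median lay between -0.0064 and 0.07. That gene was CDC20, the mitotic activator of the anaphase-promoting complex, which rose from 326.4 ± 9.49 TPM in STING WT to 393.5 ± 12.5 TPM in STING KO cells at 0 Gy (SD, n = 3; difference 0.27, adjusted p = 0.010). CDC20 was lower after RT by -0.27 in WT (adjusted p = 0.0082) and -0.44 in KO cells (adjusted p = 6.2e-04).

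Squamous and other epithelial genes linked to KLF4 were not called lower in KO cells. Of 20 listed, 12 were tested, and 2 were past the threshold for KO in each arm. Both were higher, and 1 of them, KRT19, is not a keratin of squamous differentiation. KRT4, a keratin of the upper layers of oesophageal and oral mucosa, rose from 25.0 ± 3.40 TPM in STING WT to 58.5 ± 2.80 TPM in KO cells at 0 Gy, and from 8.67 ± 0.926 to 24.7 ± 2.26 TPM after RT (SD, n = 3 each). Its KO differences were 1.20 (SE 0.11, limma adjusted p = 1.6e-04) and 1.41 (SE 0.11, adjusted p = 3.1e-05). KRT19, a simple-epithelial keratin, was higher in KO by 0.44 at 0 Gy (adjusted p = 2.7e-05) and 0.51 after RT (adjusted p = 7.8e-06). The list median for KO was 0.42 at 0 Gy and 0.30 after RT, beside -0.02 over all genes in each arm. RT lowered KRT4, KRT19 and TGM1, a transglutaminase of the cornified envelope, and raised SPRR1B, one of its substrates, in both genotypes. The KRT4 difference for RT was -1.42 in WT (adjusted p = 9.7e-05) and -1.21 in KO cells (adjusted p = 3.4e-04). The summed TPM of 7 squamous and epithelial markers also differed, from 3164 to 3532 in WT and from 3812 to 5550 in KO libraries at 0 Gy, and from 2638 to 3159 and from 3462 to 4331 after RT. Most of that sum was 1 keratin, KRT5, at 1869 to 4839 TPM over all libraries, and no other marker of the list exceeded 294.5 TPM. The part of the shift in that sum in the keratin values was not tested.

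Cell cycle genes linked to KLF4 or KLF6 included members that were lower in KO cells. All 8 listed were tested, and 2 were past the threshold at 0 Gy and 3 after RT, all of them lower. CCND2, a G1 cyclin, fell from 22.9 ± 1.12 TPM in STING WT to 9.24 ± 0.177 TPM in KO cells at 0 Gy (SD, n = 3), with KO differences of -1.22 (SE 0.06, limma adjusted p = 1.2e-06) and, after RT, -1.05 (SE 0.06, adjusted p = 3.6e-06). CDKN1A, the cyclin-dependent kinase inhibitor p21, was lower in KO by -0.70 (adjusted p = 0.0033) and -0.88 (adjusted p = 4.2e-04). CCND1, another G1 cyclin, was also lower in irradiated KO cells than in irradiated WT cells, by -0.23 (adjusted p = 0.0084). The list median was -0.02 at 0 Gy and -0.03 after RT, near the -0.02 of all genes in each arm. With RT 4 of the 8 were higher in WT cells, led by ODC1 at 1.15 (adjusted p = 1.5e-04), CDKN1A at 0.78 (adjusted p = 0.0016) and CCND2 at 0.47 (adjusted p = 0.0018). In KO cells 3 were higher and CCNB1, the mitotic cyclin, was lower at -0.25 (adjusted p = 0.021).

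TGF-beta responsive genes, the setting in which KLF10 and KLF11 are known, held calls for both RT and genotype. Of 13 tested, 0 were past the threshold for KO at 0 Gy (limma), with 5 at an unadjusted p under 0.05. After RT 1 was past it, PMEPA1, a feedback inhibitor of the pathway, which was higher in KO by 0.27 (adjusted p = 0.038). RT left 3 of the 13 higher and 1, ID1, lower in each genotype. The list median was 0.12 for KO at 0 Gy, 0.14 for KO after RT, 0.11 for RT in WT and 0.19 for RT in KO cells, beside -0.02, -0.02, 0.02 and 0.02 over all genes. CTGF, a matricellular factor, differed most in WT cells at 0.75 (adjusted p = 0.0011), followed by LTBP2 at 0.56 (adjusted p = 0.0035) and CYR61 at 0.48 (adjusted p = 7.2e-04), and in KO cells LTBP2 led at 0.63 (adjusted p = 0.0019). Of 9 glucocorticoid-inducible genes tested, the setting of KLF9, 1 was past the threshold in any of the 4 comparisons between groups, the phosphatase gene DUSP1. Averaged over WT and KO cells, 2 of the 9 were higher and 2 lower after RT, beside 10.2% of all genes. Averaged over both arms, 2 were lower in KO, beside 7.43% of all genes. At 0 Gy the mean TPM of DUSP1 was 7.66 ± 0.427 for WT and 7.56 ± 0.160 for KO, and after RT it was 16.4 ± 1.26 for WT and 10.9 ± 1.40 for KO (SD, n = 3). The list median lay between -0.0026 and 0.06 over the 4 comparisons. DUSP1 was higher after RT by 1.00 (SE 0.09, adjusted p = 3.1e-04) in WT and by 0.46 (SE 0.09, adjusted p = 0.021) in KO cells, and lower in KO after RT by -0.55 (adjusted p = 0.0077). The rise of DUSP1 in KO minus its rise in WT was -0.54 (SE 0.13, limma adjusted p = 0.575), so the 2 rises were not shown to differ. These list counts stand beside 1.73%, 3.59%, 3.74% and 3.69% of all genes past the threshold for KO at 0 Gy, KO after RT, RT in WT and RT in KO cells. Comparisons that use the same libraries, such as KO and RT effects that both use irradiated KO cells, are not independent of each other.

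The label of the line was checked against 16 marker genes. The squamous markers KRT5 (1869 to 4839 TPM), TP63 (66.2 to 110 TPM) and EPCAM (252 to 295 TPM) were high in all libraries. PTPRC and CD3E of blood cells, PECAM1 of endothelium and COL3A1 and PDGFRB of fibroblasts stayed at or below 0.115 TPM, whereas CD68 (14.7 to 31.1 TPM), CDH5 (8.51 to 19.8 TPM), COL1A1 (6.34 to 9.24 TPM) and VWF (2.60 to 4.49 TPM) were present. Genes that overlap a member on the annotation, of which KLF3-AS1, KLF7-IT1, MIR7845 and AC104794.4 had any value above 0, did not exceed 0.401 TPM in any library, and the strand setting of the counting was not given in the sources used here.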

How the data were processed

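RNA-Seq was available for 12 FaDu libraries in 4 groups of 3, named by the sample labels. The authors deposited 1 table of TPM per gene and library, each library summing to 1000000, so read depth is unknown and precision rests on the spread between libraries. Per the submitters' processing notes the tools were HISAT2, StringTie and DESeq2 on hg38, with versions, annotation and strand setting not given in the sources used here. The columns carry cell names, NT2 for the non-targeting control and A63 for the STING KO, and TMEM173 was lower in every A63 column. The labels do not say whether libraries came from separate cultures, so p-values measure the spread between these libraries. No batch or date was given.

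Values of log2(TPM + 1) were fitted, for the 15973 genes that reached 1 TPM in no fewer than 3 libraries, with limma 3.58.1 in R 4.3.3 (4 group means, eBayes with trend, 8 residual degrees of freedom). Benjamini-Hochberg adjustment ran over all tested genes in each of 7 contrasts, with a threshold of 0.05. DESeq2, which needs counts, was not used here. The code was tested on simulated data. The members and lists were chosen with earlier results of these data known, and the result of 1 list gene is not reported here. The genes named are TMEM173, the 10 members, up to 3 genes of each list with the largest difference past the threshold, and the 5 genes nearest to KLF4. KLF16, KLF12, KLF14, CCNB1 and LGALS7B are named outside that rule, after their values were seen, as are cell type markers and genes overlapping a member. Alternatives were a pseudocount of 0.1, no filter, a mean of 5 TPM or more, quantile normalization, median-of-ratios factors, no trend, the replicate number as a block, only the 6 libraries compared, and each library left out. Coordinates are from GENCODE release 29.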

Additional observations from a re-analysis of the deposited data

Results flagged for a closer look

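KLF2 stood out because its STING KO difference had opposite directions in the 2 arms, with every library of a group on 1 side. Mean TPM in KO minus WT was -0.113 at 0 Gy and 0.213 after RT, all below 1 TPM. At 0 Gy the nearest libraries were 0.278 TPM in KO and 0.285 TPM in WT. Libraries of KO and WT did not overlap, in either direction, for 20.6% of the genes tested at 0 Gy and 24.1% after RT. KLF2 was under the level needed for testing. When genes of any level were fitted with limma, the RT response in KO minus that in WT was 0.32 (SE 0.10) on the log2(TPM + 1) scale, with an adjusted p of 0.840, so the difference did not pass. In that fit the RT difference of KLF2 in KO cells was 0.42 (SE 0.07, adjusted p = 0.029).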

How the results depend on the processing

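The KO difference of KLF4, for which the members were chosen, lay over 20 alternatives between -2.07 and -1.76 at 0 Gy and between -1.80 and -1.61 after RT. Over 56 member results and 1089 values from alternatives, 991 kept their direction and side of the threshold, 69 lost a call, 4 gained one and 25 changed sign. The number of members past the threshold for KO after RT went from 2 to 1 with no filter, median-of-ratios factors, quantile normalization, the replicate block and only the 6 libraries compared, where KLF6 dropped out. With only those 6 libraries, RT in WT and RT in KO gave 1 member each instead of 2 and 3. The cause of these changes was not tested. With 1 library left out, the counts ranged from 1 to 2 for KO after RT, RT in WT, RT in KO and KO over both arms, from 3 to 5 for RT over both genotypes, and stayed at 1 for KO at 0 Gy. The counts for the KO effect include KLF4, for which the members were chosen. The 1 at 0 Gy was KLF4 alone, with 0 of the 7 other members, so its steadiness says nothing of the family.

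Small differences changed sign. KLF3 for KO at 0 Gy was 0.0117 with median-of-ratios factors and 0.0051 with quantile normalization, and -0.0470 to 0.0231 with 1 library left out. Over the same omissions KLF5 for KO at 0 Gy ranged from -0.36 to 0.22, KLF13 for KO at 0 Gy from -0.11 to 0.22, KLF13 for RT in WT from -0.21 to 0.12, KLF11 for RT in WT from -0.0975 to 0.0705, KLF5 for RT in KO from -0.45 to 0.13, KLF13 for KO over both arms from -0.12 to 0.0463, and KLF11 for RT over both genotypes from -0.0808 to 0.0033. The genotype difference of the RT response ranged from -0.0787 to 0.0353 for KLF7 and from -0.13 to 0.0335 for KLF11.

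The labels number the replicates alike in each group. Over all genes tested, deviations of 18 same-numbered pairs correlated at r between -0.06 and 0.06, with 0 pairs over 0.1, so the numbers were not taken as pairs. KLF4, however, was lowest in library 3 of each of the 4 groups. With the number as a block its RT difference over both genotypes had a limma adjusted p of 0.0072, beside 0.0495 without it. With the number as a block, KLF6 (KO after RT, adjusted p = 0.063; RT in KO, 0.059) and KLF7 (RT in KO, 0.086) were not past the threshold and KLF4 for RT in KO was (0.029). With a pseudocount of 0.1 the 4 genes nearest to KLF4 kept their order and LGALS7B took the place of PMAIP1.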

Other observations

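KLF14, a KLF gene outside the 10, was singled out after its values were seen. It had 0.408, 0.544 and 0.469 TPM in unirradiated WT and 0.210, 0.382 and 0.306 TPM in unirradiated KO libraries. After RT it had 0.826, 0.764 and 0.671 TPM in WT and 0.470, 0.433 and 0.516 TPM in KO libraries. Its KO libraries were below its WT libraries in both arms, and its irradiated libraries were above the unirradiated ones in both genotypes (two-sided exact permutation test, p = 0.1 for each of the 4, the smallest that 3 against 3 allow). No library reached 1 TPM.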
